A study of Mus musculus with 4 samples.

Results

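The genes described here are the intermediate filament and lamin genes Des, Vim, Nes, Synm, Sync, Lmna, Lmnb1 and Lmnb2, 8 of the 32285 genes counted in mouse muscle stem cells. They were chosen by name, and all 8 were found in the files of all 4 libraries. The cells carried the genotype MyoD-KI, a knock-in in which the red fluorescent protein tdTomato reports MyoD, the transcription factor of the muscle lineage encoded by Myod1. They came from skeletal muscle, were grown for 5 days in DMEM and Ham's F12 with fetal bovine serum, Ultraser G and antibiotics, and were sorted by flow cytometry for high MyoD-tdTomato signal before droplet single-cell RNA sequencing. The labels give 1 group with replicate numbers 1 to 4 and no second genotype or treatment. Sorted cells with low reporter signal were not analysed here. The age and sex of the mice, the number of mice and the sort gates were not given in the sources used here.

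Intermediate filaments are rope-like polymers that give a cell mechanical strength. Desmin (Des) is the muscle filament protein that ties myofibrils to each other and to the membrane. Vimentin (Vim) and nestin (Nes) form filaments in undifferentiated and migrating cells, and nestin is also known from regenerating and immature muscle fibres. Synemin (Synm) and syncoilin (Sync) are filament proteins that join desmin networks and bind the dystrophin-associated complex. Lamins are the intermediate filaments of the nucleus: Lmna encodes the A-type lamins A and C, and Lmnb1 and Lmnb2 encode the B-type lamins.

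The 4 libraries held 62627341 to 68898900 unique molecular identifiers (UMIs, tags that mark single captured RNA molecules). They did not behave as 4 separate samples. Pairs of libraries shared 99.9% of the barcodes of the smaller one, and their summed gene counts differed by no more than sampling noise, with a chi-square per degree of freedom of 0.903 to 1.03. They were therefore treated as repeat libraries of the same cells and counted as 1 sample. Each level below is the mean of the 4 libraries, and the 95% interval in brackets is an exact interval at the mean count of 1 library. These intervals cover counting error only, and so does any overlap or lack of overlap between the libraries. They say nothing of variation between animals or cultures. No test between conditions was possible with 1 sample, and no p-value is given. Of 5944 barcodes found in every library, 5481 had at least 1000 genes and under 10% mitochondrial UMIs and were kept. Their median depth was 10369 to 11382 UMIs per library.

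Levels are given as CPM, the UMIs of a gene per 1000000 UMIs of the same cells. Kept cells were put into classes by genes outside the group described. Myog, which encodes myogenin and marks commitment to differentiation, gave 5 classes with limits at 100, 500, 1500 and 3000 CPM. The sum of Mki67 and Top2a, which are transcribed in dividing cells, gave non-cycling cells (under 75 CPM, 3015 cells), cycling cells (150 CPM and over, 2126 cells) and 340 cells between. The sorted cells were of the muscle lineage by their markers. All 9 muscle markers examined reached 10 CPM over kept cells, among them Myod1 at 507 CPM, and no marker of endothelial, immune or glial cells reached that level. Of the fibroblast markers Col3a1 (110.5 CPM) did, and of the pericyte and smooth muscle markers Notch3 (50.3 CPM) and Abcc9 (11.7 CPM).

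The regulatory sequence before 3 of the genes is shown because their levels moved furthest with Myog or, for Des, because desmin is the muscle member of the family. Each sequence is the 250 bases before a RefSeq transcription start, read 5′ to 3′ on the gene's strand in GRCm38.p6. Capitals mark CANNTG, the E-box letters that basic helix-loop-helix factors such as MyoD and myogenin bind. The window of Des is chr1:75360042-75360291 on the plus strand, that of Nes chr3:87970843-87971092 on the plus strand, and that of Lmnb2 chr10:80918246-80918495 on the minus strand.
Des: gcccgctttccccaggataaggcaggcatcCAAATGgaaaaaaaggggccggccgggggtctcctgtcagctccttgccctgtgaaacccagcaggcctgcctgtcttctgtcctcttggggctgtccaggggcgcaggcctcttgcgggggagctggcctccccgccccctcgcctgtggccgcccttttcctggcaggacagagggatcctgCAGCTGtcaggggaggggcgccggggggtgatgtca
Nes: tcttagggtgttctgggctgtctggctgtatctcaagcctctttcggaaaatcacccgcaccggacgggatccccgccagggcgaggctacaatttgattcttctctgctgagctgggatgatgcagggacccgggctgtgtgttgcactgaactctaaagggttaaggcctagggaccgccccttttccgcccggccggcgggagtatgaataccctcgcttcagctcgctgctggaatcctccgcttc
Lmnb2: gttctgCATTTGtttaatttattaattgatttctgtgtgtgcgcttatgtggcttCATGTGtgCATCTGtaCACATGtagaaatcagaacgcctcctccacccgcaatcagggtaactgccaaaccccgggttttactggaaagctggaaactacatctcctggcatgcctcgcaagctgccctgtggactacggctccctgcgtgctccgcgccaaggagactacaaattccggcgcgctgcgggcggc
The Des window holds 2 CANNTG matches, CAAATG beginning 220 bases and CAGCTG 36 bases before the start. The Lmnb2 window holds 4, which begin 244, 195, 187 and 179 bases before the start, and the Nes window holds none. A second RefSeq start of Lmnb2 has a window at chr10:80906413-80906662, not shown, with 1 match, CACCTG beginning 31 bases before it. CANNTG reads as CANNTG on both strands, so each match counts once. Of 32536 promoter windows of the same length, 66.2% hold CANNTG and 13.1% hold CAGCTG. The matches are letters in a window and not shown to be bound sites.

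The genes lie on several chromosomes in GENCODE M21 on GRCm38, to which they were matched by Ensembl identifier. Des spans chromosome 1 from 75360329 to 75368579 on the plus strand and Vim chromosome 2 from 13573927 to 13582826 on the plus strand. Nes (87971078 to 87980451, plus strand) and Lmna (88480147 to 88509956, minus strand) are both on chromosome 3. The GENCODE start of Nes lies inside the Nes window shown above, which was placed by a RefSeq start, so the last bases of that window fall within this span. Synm covers 67730160 to 67759742 on the minus strand of chromosome 7, Sync 129287617 to 129308559 on the plus strand of chromosome 4, and Lmnb2 80901203 to 80918245 on the minus strand of chromosome 10. None overlaps another gene on its own strand. Des, Synm and Sync overlap Gm15179, Ttc23 and Rbbp4 on the opposite strand.

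Over all kept cells Vim stood at 2297 CPM (2285 to 2308), Lmna at 1196 CPM (1187 to 1204) and Des at 1165 CPM (1157 to 1173). Nes stood at 176 CPM, Lmnb1 at 114 CPM, Sync at 45.3 CPM and Lmnb2 at 41.0 CPM. Synm was near the limit of detection at 1.42 CPM (1.15 to 1.74), or 93.8 UMIs per library over 5481 cells. The libraries count molecules at the 3-prime end, but capture can differ between genes. Whether intronic reads were counted is not given in the sources used here, so gene length may also enter these levels. The order of the genes is therefore not read as an order of transcript number, and the changes of each gene across classes are what follows. With each cell thinned to 5000 UMIs, 97.9% of 5197 cells had a Des UMI, 98.4% a Vim UMI and 99.3% an Lmna UMI. Without thinning those shares were 99.4%, 99.4% and 99.7%.

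Vim was lower and Des higher at high than at low Myog, and Nes went with Des and not with Vim. Among non-cycling cells Vim was 2.73-fold lower, Des 1.82-fold higher and Nes 11.5-fold higher in the 1854 cells with at least 1500 CPM Myog than in the 628 cells under 100 CPM. The later cells also carried more Myh3 and Ckm, which encode embryonic myosin and muscle creatine kinase, and less Pax7 and Myf5, which mark muscle stem cells and myoblasts. Myh3 went from 14.9 to 1648 CPM and Pax7 from 122 to 5.43 CPM.

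**Figure D1:**
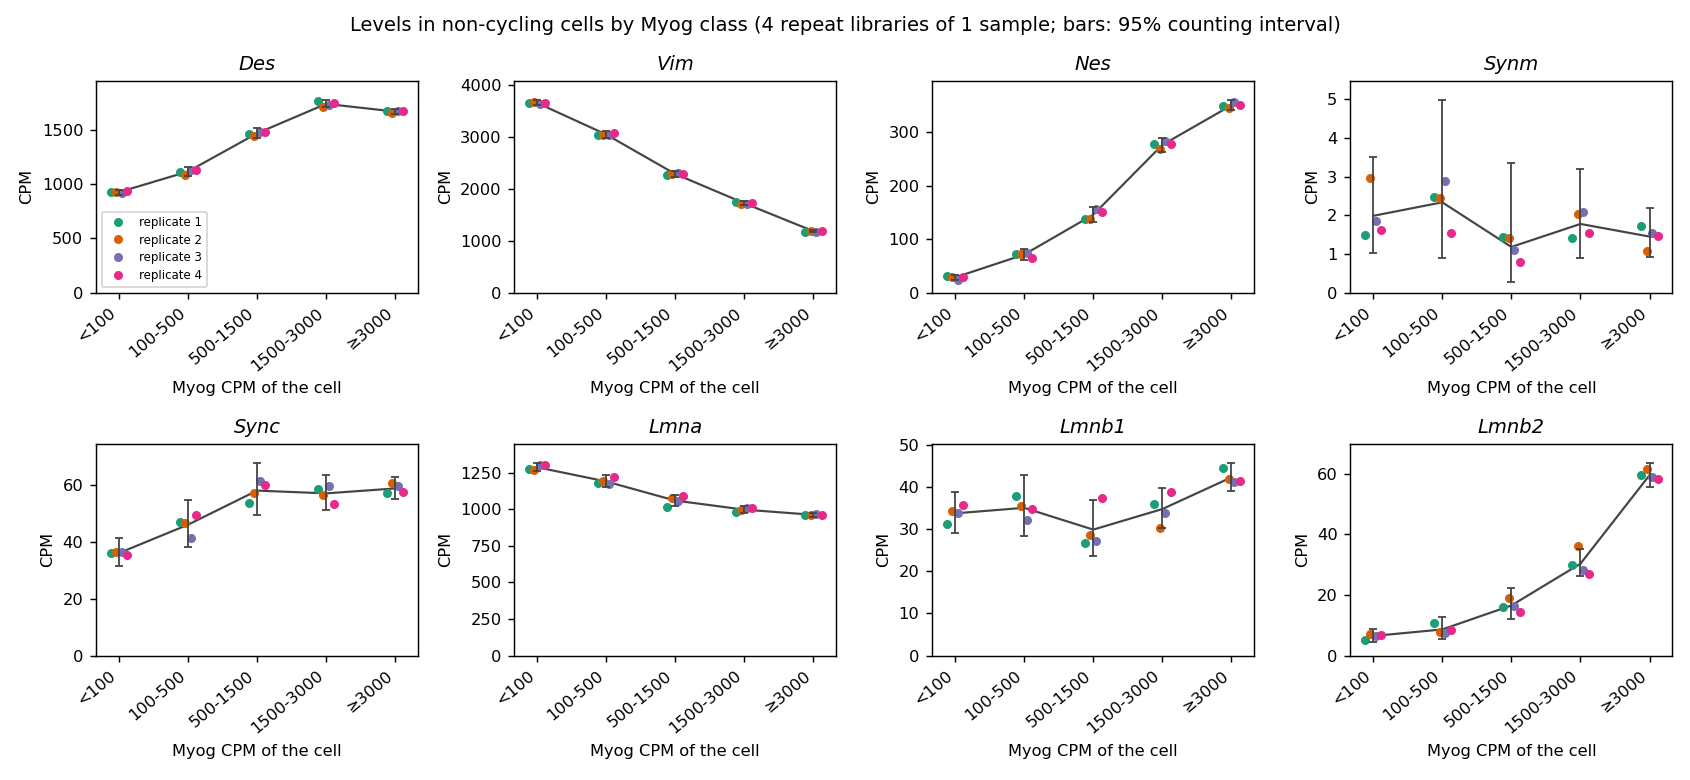
Level in CPM (y axis) of each gene in non-cycling cells by the Myog CPM of the cell (x axis, 5 classes). Points are the 4 libraries of the same cells, lines their mean and bars the exact 95% counting interval. Vim declines from 3662 to 1189 CPM while Nes climbs from 28.7 to 351 CPM, Des levels off after 1739 CPM, and Lmnb2 climbs from 6.44 to 59.5 CPM.

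Vim stood at 3655, 3677, 3646 and 3668 CPM in replicates 1 to 4 of the Myog-low non-cycling cells. In the Myog-high non-cycling cells it stood at 1342, 1349, 1333 and 1350.0 CPM. The libraries did not overlap between the classes, with a log2 ratio of -1.45 (-1.47 to -1.42). Across the 5 classes from low to high Myog, Vim was 3662, 3053, 2292, 1727 and 1189 CPM, with each class below the one before and no overlap of counting intervals. This decline was the steepest among the members.

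Des stood at 929, 923, 917 and 933 CPM in replicates 1 to 4 of the Myog-low cells and at 1698, 1669, 1690.1 and 1696 CPM in the Myog-high cells. All libraries of the second class lay above all of the first, and the log2 ratio was 0.87 (0.83 to 0.91). Its course was not a steady climb. From 926 CPM it reached 1116, 1468 and 1739 CPM in the next classes and was 1668 CPM (1647 to 1688) in the class of 3000 CPM Myog and over, below the 1706 to 1772 CPM interval of the class before.

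Nes stood at 31.7, 28.7, 24.7 and 29.8 CPM in replicates 1 to 4 of the Myog-low cells. In the Myog-high cells it stood at 329, 323, 335 and 330.0 CPM, far from the first set, with a log2 ratio of 3.52 (3.30 to 3.75). From class to class Nes was 28.7, 71.5, 146, 277 and 351 CPM, without overlap of neighbouring intervals. The share of cells with a Nes UMI, at 5000 UMIs per cell, was 10.3% (7.89% to 13.2%) in the lowest class and 66.5% (63.9% to 69.0%) in the highest. Thinning left out 80 of 628 cells in the lowest class and 49 of 1372 in the highest, and without it the shares were 17.5% and 79.1%. The sample holds no cell type that lacks Nes to give a background from free RNA. Of Vim and Nes, both filament genes of undifferentiated cells, only Vim declined with Myog.

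Seen as a balance, the Des share of Des, Vim and Nes UMIs went from 20.1% (19.6% to 20.5%) in Myog-low non-cycling cells to 46.5% in the 1500 to 3000 CPM class and 52.0% (51.6% to 52.5%) at 3000 CPM and over. Vim held 79.3% of these UMIs at the low end and 37.1% at the high end, and Nes 0.622% and 10.9%. The difference in the Des share between Myog-high and Myog-low non-cycling cells was 30.2 percentage points. Within single non-cycling cells, Des had more UMIs than Vim in 2.71% of cells under 100 CPM Myog, then in 7.95%, 24.2% and 49.6%, and in 67.3% (64.7% to 69.8%) of cells at 3000 CPM and over. Because capture can differ between the genes, only the change of this share across classes is read.

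**Figure D2:**
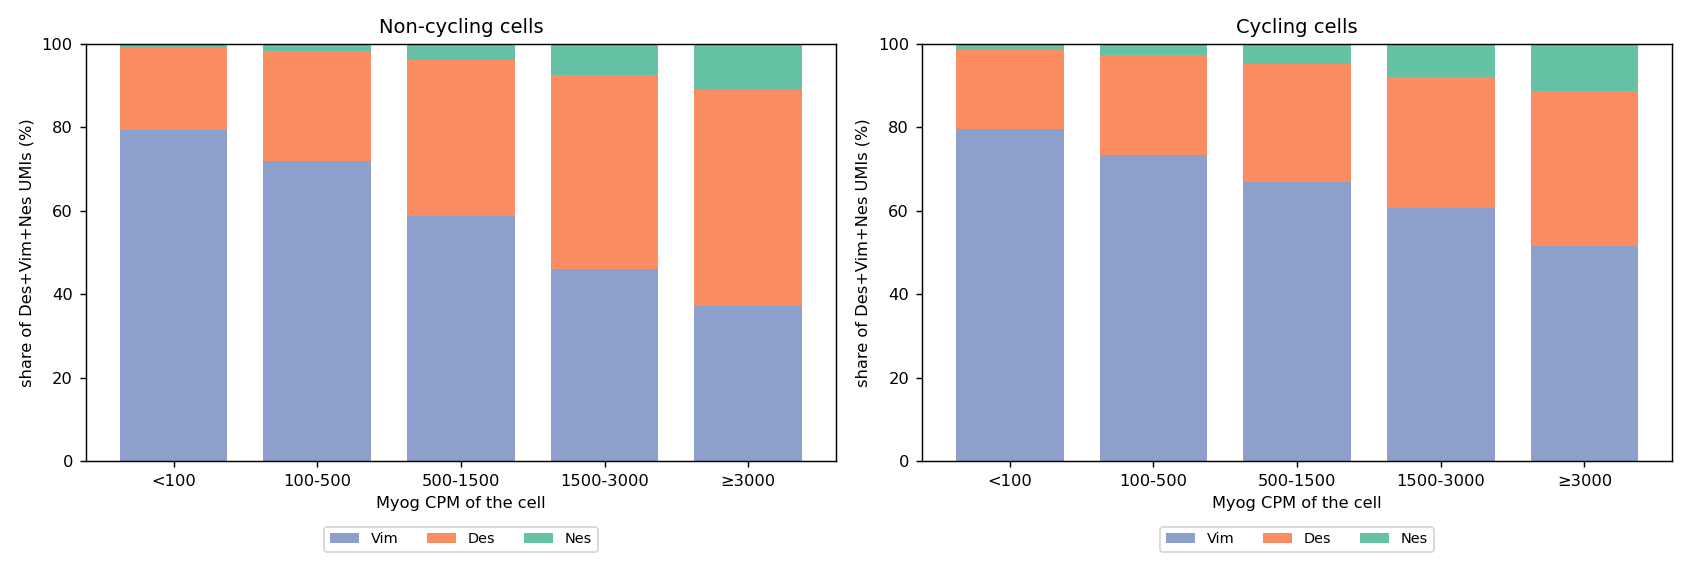
Share of Des, Vim and Nes UMIs in percent (y axis, stacked to 100) by the Myog CPM of the cell (x axis), for non-cycling cells on the left and cycling cells on the right. Vim takes 79.3% of the bar in the lowest non-cycling class and 37.1% in the highest, and stays at 51.5% in the highest cycling class.

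Over the 8 members, 2 were at least 2-fold higher in the Myog-high cells (Nes and Lmnb2) and 1 was at least 2-fold lower (Vim). Of 13023 genes with at least 20 UMIs per library, 10.5% were at least 2-fold higher and 24.4% at least 2-fold lower. The median log2 ratio was 0.47 over the members and -0.33 over all genes. Scaling by TMM factors, which are set by the bulk of genes, raised every ratio of this comparison by 0.42. Under that scaling 49.6% of the genes past 2-fold were higher, against 30.1% with CPM. Des (1.29) and Sync (1.11) were then past 2-fold as well, which made 5 of 8 members, and Vim stayed at -1.03.

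**Figure D3:**
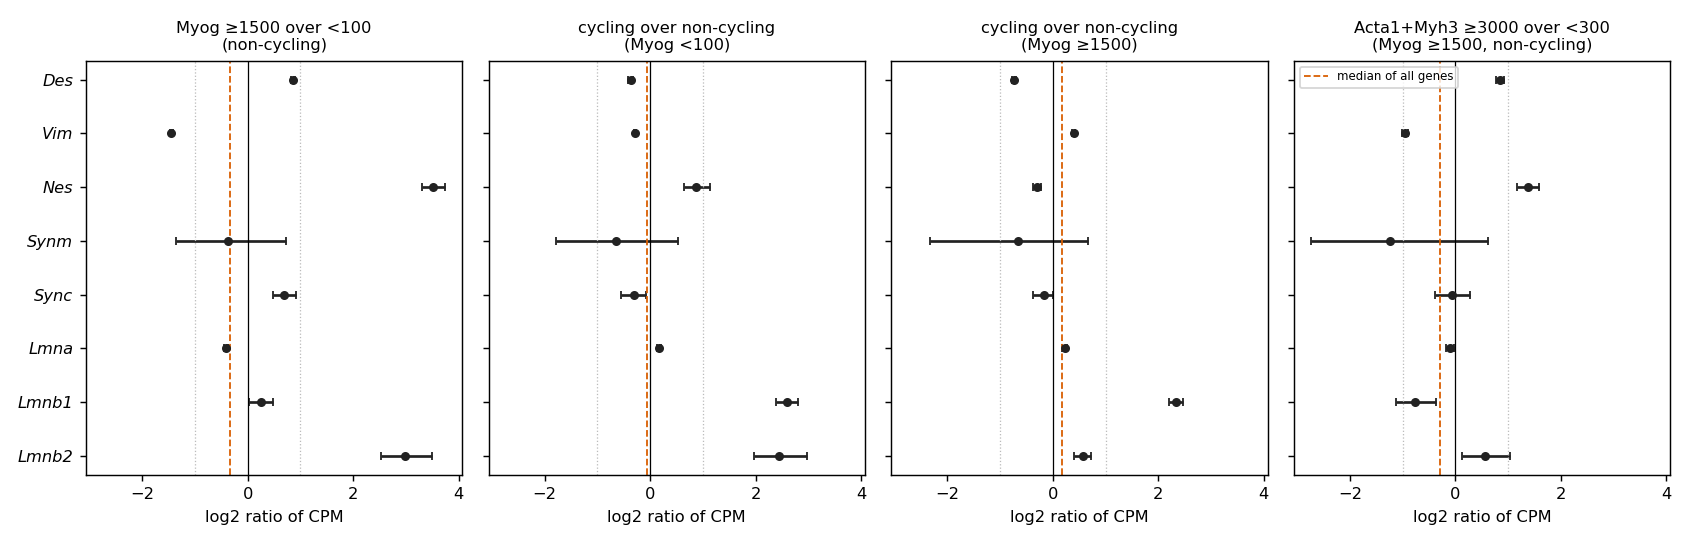
Log2 ratio of CPM (x axis) of each member (y axis) in 4 comparisons, from left to right Myog-high over Myog-low non-cycling cells, cycling over non-cycling cells at low Myog, the same at high Myog, and late over early cells by Acta1+Myh3. Bars are 95% counting intervals, dotted lines mark 2-fold and the dashed line the median of all genes; Lmnb1 sits at 2.59 and 2.34 in the cycling comparisons and Synm has the widest bars.

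Vim and Nes are also expressed outside muscle, so markers of other cells stand beside them. The summed level of 6 fibroblast markers was 221 CPM (217 to 226 over the libraries) in Myog-low and 49.4 CPM (48.1 to 50.1) in Myog-high non-cycling cells. Of the former, 218 CPM came from Col3a1, a collagen gene, while Pdgfra, Dcn and Col1a1 stood at 0.773, 1.06 and 0.974 CPM and Lum was at 0. The 6 pericyte and smooth muscle markers summed to 149 CPM (144 to 152) and 38.9 CPM (38.0 to 40.6), led in the Myog-low cells by Notch3 at 110.4 CPM. Abcc9 of the same list went the other way, from 1.45 to 28.5 CPM, and made up most of the sum in the Myog-high cells. Endothelial markers summed to 2.0 and 0.596 CPM, immune markers to 0.840 and 0.525 CPM and glial markers to 2.77 and 2.04 CPM. The part of cells expressing Col3a1, Notch3, Rgs5 or Pdgfrb in the decline of Vim was not tested. Pax7 (122 CPM), Myf5 (113 CPM) and Myod1 (346 CPM) were measured in the same Myog-low cells.

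Cells poor in Malat1, an abundant nuclear RNA, were another subset with different filament levels. In the 768 cells under 2000 CPM Malat1, Vim was 3099 CPM against 2194 CPM in the other kept cells, Nes 94.7 against 187 CPM and Sync 22.5 against 48.3 CPM. Des was 1144 against 1168 CPM. Such cells made up 14.2% of Myog-low and 8.20% of Myog-high non-cycling cells. Without them the log2 ratio was -1.42 for Vim, 0.88 for Des and 3.50 for Nes.

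Sync and Synm, the desmin partners, behaved less sharply. Sync stood at 36.1, 36.6, 36.4 and 35.4 CPM in replicates 1 to 4 of the Myog-low and at 57.8, 59.7, 59.8 and 56.5 CPM in the Myog-high non-cycling cells, without overlap and with a log2 ratio of 0.69 (0.48 to 0.91). It levelled off early: the classes from 500 CPM Myog upward were at 58.2, 57.2 and 58.9 CPM, with overlapping intervals. Synm was 1.99 CPM (1.03 to 3.51) in the Myog-low and 1.55 CPM in the Myog-high cells, and the libraries overlapped. Its log2 ratio of -0.36 had an interval from -1.37 to 0.73, so no direction was detectable at this depth, and under TMM the sign was positive (0.058).

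Among cells already high in Myog and non-cycling, the summed level of Acta1 and Myh3, which encode skeletal alpha-actin and embryonic myosin, separated 147 early cells (under 300 CPM) from 1195 late cells (3000 CPM and over). Nes was 143, 154, 156 and 131 CPM in replicates 1 to 4 of the early and 382, 369.9, 385 and 383 CPM in the late cells. Nes was therefore higher in the cells with the most sarcomere transcripts, by a log2 ratio of 1.38 (1.17 to 1.59). Des was 1066 CPM in early and 1907 CPM in late cells (0.84, 0.76 to 0.92), and Vim was 2205 and 1141 CPM (-0.95, -1.01 to -0.89). Des was thus still higher in later cells, although it was slightly lower in the top Myog class than in the one before. The late cells also had more Myog, 4387 against 3059 CPM, and more depth, a median of 11724 against 8653 UMIs. The part of Myog and of depth in these differences was not tested.

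In the same comparison 1 member was at least 2-fold higher (Nes) and 1 at least 2-fold lower (Synm), beside 8.49% and 14.2% of 11595 genes. Synm rested on 4.50 UMIs per library in the early cells, and its interval ran from -2.74 to 0.62. Scaling by TMM raised the ratios by 0.37, and 62.9% of genes past 2-fold were then higher, against 37.4% with CPM. Under TMM the members past 2-fold were Des (1.21) and Nes, and Synm (-0.87) was not. Sync was 61.0 and 58.4 CPM, with libraries that overlapped, and its log2 ratio was -0.06 with CPM and 0.31 with TMM. This comparison lies within the Myog-high non-cycling cells used above and is no separate sample.

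Proliferation went with lower Des at every Myog level, while Vim and Nes took opposite signs at low and high Myog. The comparison of cycling with non-cycling cells at low Myog (1111 against 628 cells) shares its non-cycling cells with the Myog comparison, as does that at high Myog (366 against 1854 cells). Des stood at 708, 726, 727 and 713 CPM in replicates 1 to 4 of cycling Myog-low cells, all below the 917 to 933 CPM of non-cycling ones, a log2 ratio of -0.37 (-0.41 to -0.32). At high Myog the cycling cells were at 1022, 1025, 1006 and 999 CPM, below every library of the non-cycling cells, with a ratio of -0.74 (-0.78 to -0.70). In cycling cells Des was 718, 835, 954, 1008 and 1024 CPM over the 5 Myog classes, a smaller span than in non-cycling cells.

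Vim was lower in cycling than in non-cycling cells at low Myog, 2991 against 3662 CPM (-0.29, -0.32 to -0.27). At high Myog it was higher in cycling cells, 1766 against 1343 CPM (0.40, 0.36 to 0.43). For Nes the signs were the reverse, with 52.8 against 28.7 CPM at low Myog (0.88, 0.64 to 1.13) and 268 against 329 CPM at high Myog (-0.30, -0.38 to -0.22). Every library gave these signs. At high Myog the TMM values were 0.17 for Vim and -0.53 for Nes, and the median log2 ratio of all genes with CPM was 0.18. The cycling Myog-high cells also had less Myog, 2808 against 4194 CPM, and less Acta1, 1559 against 5444 CPM. Within single Myog classes the signs stayed with CPM and the gaps were smaller. Vim in cycling against non-cycling cells was 1932 against 1727 CPM at 1500 to 3000 CPM Myog and 1413 against 1189 CPM above. In the same classes Nes was 249.3 against 277 CPM, with overlapping intervals, and 307 against 351 CPM. No TMM factors were computed for single classes. TMM lowered the pooled ratios by 0.23, so the sign of Vim within these classes may depend on the scaling and is not read. The part of Acta1, and of Myog differences left within a class, was not tested. Sync was 29.1 against 36.1 CPM at low and 51.8 against 58.4 CPM at high Myog.

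The 3 lamin genes followed 3 different courses. Lmnb1 went mainly with proliferation, Lmnb2 with proliferation and Myog, and the direction of Lmna with Myog depended on the scaling. Lmna is the type known to increase in stiff and differentiated tissues, and Lmnb1 is a known marker of dividing cells that is lost in senescence.

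Lmnb1 stood at 31.1, 34.3, 33.9 and 35.6 CPM in replicates 1 to 4 of the non-cycling and at 202, 202, 203 and 204 CPM in the cycling Myog-low cells. The libraries were far apart, with a ratio of 6.02-fold and a log2 ratio of 2.59 (2.38 to 2.81). At high Myog Lmnb1 was 40.1 CPM in non-cycling and 203 CPM in cycling cells, or 5.05-fold (log2 ratio 2.34, 2.21 to 2.47). Across the 5 Myog classes it lay between 29.9 and 42.2 CPM in non-cycling and between 187 and 235 CPM in cycling cells. The log2 ratio with Myog in non-cycling cells was 0.25 (0.03 to 0.48), and 0.67 under TMM. Within Myog-high non-cycling cells, however, Lmnb1 differed by the level of Acta1 and Myh3. It was 52.0, 42.1, 59.0 and 55.1 CPM in replicates 1 to 4 of the early and 32.7, 29.1, 29.9 and 31.1 CPM in the late cells, without overlap, with 63.5 CPM in the 512 cells between. The log2 ratio of late over early was -0.76 (-1.13 to -0.37), and -0.39 under TMM. At 5000 UMIs per cell, 13.7% of non-cycling and 59.2% of cycling Myog-low cells had an Lmnb1 UMI, and 22.0% and 83.9% without thinning.

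Lmnb2 stood at 5.15, 7.26, 6.43 and 6.90 CPM in replicates 1 to 4 of the non-cycling Myog-low cells. It was at 35.7, 34.2, 34.7 and 35.9 CPM in cycling Myog-low cells and at 50.9, 54.2, 50.1 and 49.2 CPM in non-cycling Myog-high cells. Both sets lay above all libraries of the first, with log2 ratios of 2.45 (1.97 to 2.97) for cycling and 2.99 (2.53 to 3.50) for Myog. In cycling Myog-high cells Lmnb2 was 75.7 CPM, which was 0.57 (0.40 to 0.73) above the non-cycling ones on the log2 scale. Of the 366 cycling cells, 233 were in the class of 1500 to 3000 CPM Myog. Of the 1854 non-cycling ones, 1372 were at 3000 CPM and over. Within these classes the difference was larger. Cycling against non-cycling cells were at 65.2 against 30.3 CPM in the lower class and at 98.1 against 59.5 CPM in the upper. Lmnb2 thus climbed with Myog in non-cycling cells, from 6.44 through 8.60, 16.5 and 30.3 to 59.5 CPM, where Lmnb1 had an upper bound of at most 45.7 CPM. The share of cells with an Lmnb2 UMI at 5000 UMIs went from 3.15% to 24.0% over these classes, and from 5.53% to 41.8% without thinning. Between early and late cells by Acta1 and Myh3, Lmnb2 was 34.4 and 50.8 CPM (log2 ratio 0.56, 0.13 to 1.03). It was 56.0 CPM (49.9 to 62.9) in the 512 cells between, so it did not climb steadily.

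**Figure D4:**
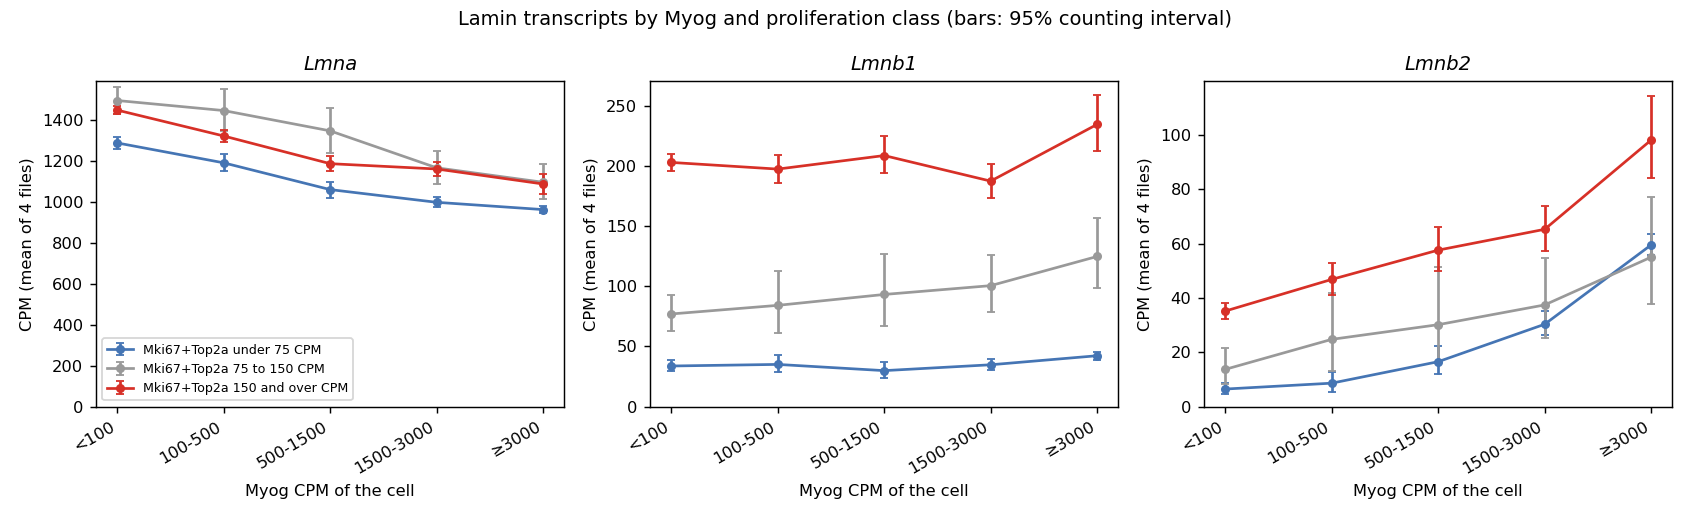
Level in CPM (y axis, starting at 0) of Lmna, Lmnb1 and Lmnb2 by the Myog CPM of the cell (x axis), with 1 line for each class of Mki67+Top2a CPM. Points are means of the 4 libraries and bars exact 95% counting intervals; the cycling and non-cycling lines of Lmnb1 stay apart at 187 to 235 and 29.9 to 42.2 CPM, whereas both lines of Lmnb2 climb.

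Lmna stood at 1278, 1268, 1304 and 1300.2 CPM in replicates 1 to 4 of the Myog-low and at 966, 971, 977 and 974 CPM in the Myog-high non-cycling cells. The libraries did not overlap, and the log2 ratio was -0.41 (-0.44 to -0.37), close to the median of all genes. Under TMM scaling the ratio was 0.015, so no direction with Myog is read. Cycling cells had more Lmna than non-cycling ones at low Myog, 1448 against 1288 CPM (0.17, 0.13 to 0.21), and the TMM value was 0.26. At high Myog the values were 1137 and 972 CPM (0.23), a difference that TMM brought to -0.0038. Between early and late cells by Acta1 and Myh3 the Lmna ratio was -0.10 with CPM and 0.28 with TMM.

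At low Myog, 2 of 8 members were at least 2-fold higher in cycling cells (Lmnb1 and Lmnb2) and none was 2-fold lower, beside 6.85% and 5.01% of 12767 genes. At high Myog, with all cells from 1500 CPM Myog upward pooled, Lmnb1 alone was at least 2-fold higher, beside 12.0% of 12764 genes. No member was 2-fold lower there, beside 5.06%. TMM lowered the ratios at high Myog by 0.23, and 55.1% of genes past 2-fold were then higher, against 70.3% with CPM.

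Finer classes of Mki67 and Top2a within Myog-low cells, chosen after the values were seen, gave a graded course for the B-type lamins. Lmnb1 was 22.9 CPM in cells without a UMI of either gene, then 47.9, 77.0, 157 and 171 CPM, and 270 CPM (256 to 284) in cells at 1000 CPM and over. Lmnb2 went from 5.93 to 49.8 CPM over the same 6 classes. Lmna was 1223 CPM in the first and between 1372 and 1495 CPM in all others. The intervals of the classes at 157 and 171 CPM Lmnb1 overlapped. The B-type lamins thus went with the amount of the 2 division genes, while Lmna did not go on climbing.

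As a balance, Lmna held 97.0% (96.6% to 97.4%) of lamin UMIs in non-cycling and 85.9% (85.4% to 86.3%) in cycling Myog-low cells, a difference of -11.1 percentage points. In non-cycling cells its share went from 97.0% at low Myog to 90.4% at 3000 CPM Myog and over, and the difference between Myog-high and Myog-low cells was -5.55 percentage points. These shares do not depend on the scaling. Within the B-type genes, Lmnb2 held 16.0% (11.6% to 21.4%) of Lmnb1 and Lmnb2 UMIs at low Myog and 58.5% (56.0% to 60.9%) at 3000 CPM and over in non-cycling cells. In cycling cells the Lmnb2 share went from 14.8% to 29.4%. The kind of B-type lamin transcript thus changed with Myog, more so in non-cycling cells, though that difference was not tested.

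The proteins that anchor filaments and the nuclear envelope gave context. Of 17 linker and partner genes, 14 had enough UMIs in the Myog comparison, 8 of them at least 2-fold higher and 1 lower in Myog-high cells, beside 10.5% and 24.4% of all genes. Dmd, which encodes dystrophin, went from 48.4 to 864 CPM (log2 ratio 4.16, 3.99 to 4.33), and Sgcd, a sarcoglycan, from 2.34 to 18.4 CPM. Macf1, a giant linker of actin and microtubules, went from 302 to 1926 CPM, and Dtnb, a dystrobrevin, was 30.4 and 8.48 CPM. Plec, which encodes the filament linker plectin, was 237 and 235 CPM. Cryab, the small heat shock protein that binds desmin and was named after its values were seen, was 640.4 and 2057 CPM. Dmd, Macf1 and Sgcd are long genes, and whether intronic reads were counted is not given in the sources used here.

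Of 18 nuclear envelope genes, all passed the same limit, with 4 at least 2-fold higher and 3 lower in the Myog-high cells, beside 10.5% and 24.4% of all genes. Their median log2 ratio was -0.08 and that of all genes -0.33. Plpp7 and Tmem38a, muscle-enriched membrane proteins of the envelope and reticulum, went from 3.79 to 89.4 and from 10.2 to 173 CPM. Syne1, a nesprin that links the nucleus to the cytoskeleton, was 56.0 and 219.5 CPM, while its relative Syne2 was 13.1 and 1.5 CPM. Tmem43 was 18.0 and 3.98 CPM and Nrm, which encodes nurim, 6.28 and 2.21 CPM. In cycling Myog-low cells 5 of the 18 were at least 2-fold higher and 0 lower, beside 6.85% and 5.01% of all genes, with a median of 0.37 against -0.05. Tmpo, which encodes the lamin-binding lamina-associated polypeptide 2, went from 64.1 to 293 CPM and Lbr, the lamin B receptor, from 17.6 to 69.8 CPM. They stood beside Lmnb1 in the finer cycling classes, Tmpo at 55.0 to 375 CPM and Lbr at 13.7 to 84.4 CPM.

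**Figure D5:**
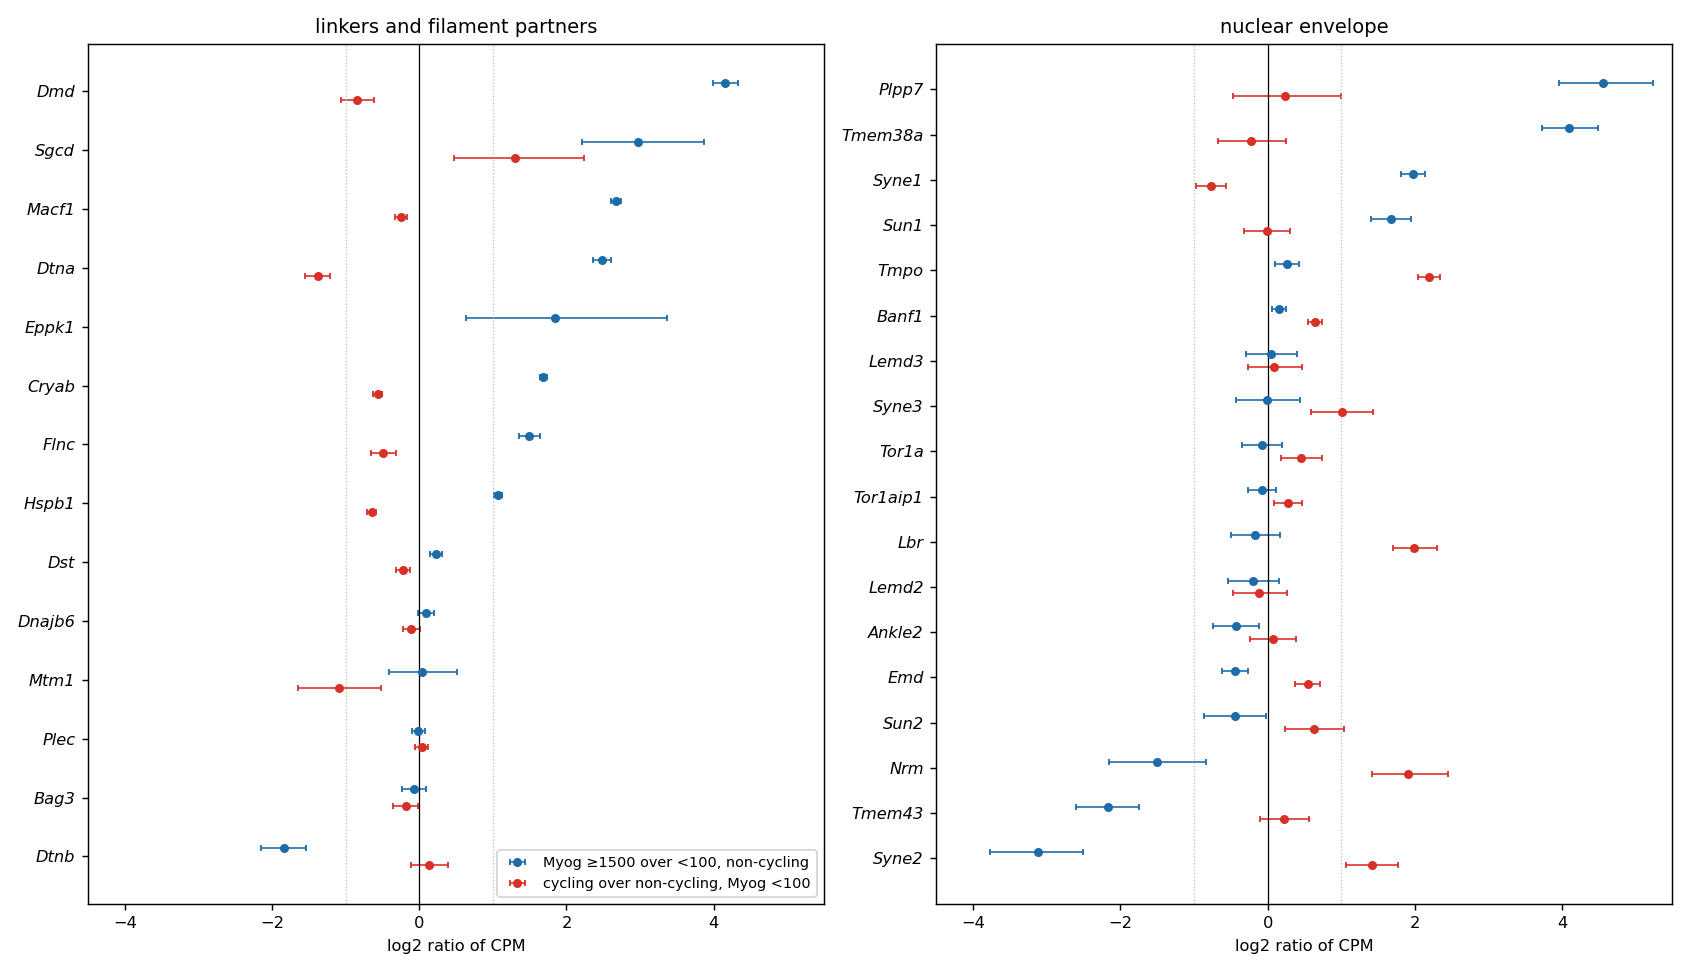
Log2 ratio of CPM (x axis) of linker genes (left) and nuclear envelope genes (right) for Myog-high over Myog-low non-cycling cells (blue) and cycling over non-cycling Myog-low cells (red). Bars are 95% counting intervals and dotted lines mark 2-fold; Dmd and Plpp7 lie furthest right in blue at 4.16 and 4.56, Tmpo and Lbr in red at 2.19 and 1.99.

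Of 5 genes for the enzymes that process prelamin A and the B-type lamins, 0 were at least 2-fold higher and 2 were lower in Myog-high cells, Icmt at 7.98 and 3.71 CPM and Rce1 at 19.9 and 9.43 CPM, beside 10.5% and 24.4% of all genes. The TMM shift of 0.42 brings both within 2-fold. Zmpste24, the protease of prelamin A, was 39.0 and 25.3 CPM. None of the 5 passed 2-fold in cycling Myog-low cells, and 1 did at high Myog, Icmt at 3.71 CPM in non-cycling and 7.45 CPM in cycling cells, beside 12.0% of all genes. The TMM shift of -0.23 in that comparison also brings it within 2-fold. Among 20 other intermediate filament genes, 16 were under 1 CPM over all kept cells. The largest of the others was Iffo1, with 174 CPM over kept cells, and it went from 56.7 to 322 CPM with Myog (log2 ratio 2.51, 2.35 to 2.67). Krt19, a keratin, was 3.31 and 0.279 CPM in the same classes. Counted over the 6 genes with enough UMIs, 3 were at least 2-fold higher and 2 lower with Myog, beside 10.5% and 24.4% of all genes. Of the 2 lower ones Iffo2, at 12.3 and 5.80 CPM, comes within 2-fold under the TMM shift.

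The genes closest in pattern were sought over the 15 classes of Myog by Mki67+Top2a, by Pearson r of log2 CPM plus 1 among 4588 genes. The classes come from the same libraries and the values of r are descriptions. Closest to Des were Mustn1 (0.976), Ubxn4 (0.964) and Gm11149 (0.960), and among the closest to Vim were Gpx1 (0.988) and Plin2 (0.986). Nes was nearest to Rbpj (0.986), Ago2 (0.983) and Vash2 (0.982). For Lmna they were Thyn1 (0.980), Mrpl20 (0.973) and Mrps18b (0.971), and for Lmnb1 Cse1l (0.981), Hnrnpd (0.981) and Nusap1 (0.979).

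Cell by cell the same order was visible among the 3015 non-cycling cells. Spearman's rho with Myog was -0.67 for Vim, 0.56 for Nes, 0.52 for Lmnb2, 0.40 for Des and -0.26 for Lmna. Within the 1854 Myog-high cells it was -0.31 for Vim, 0.066 for Nes, 0.27 for Lmnb2, 0.0075 for Des and -0.048 for Lmna. As above, no direction with Myog is read for Lmna. Between members it was -0.42 for Des with Vim, -0.43 for Vim with Nes and 0.41 for Des with Nes. Within the 1854 Myog-high cells these became -0.22, -0.06 and 0.18. Depth and the shared total enter each of these values, and low counts pull them toward 0. Des with Lmnb1 went the other way, from -0.20 over all non-cycling cells to -0.40 within the Myog-high cells, and Lmnb1 with Lmnb2 was 0.19 and 0.16.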

How the data were processed

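Single-cell UMI counts per gene and barcode were deposited by the authors as 1 matrix for each of 4 libraries and carry the Cell Ranger version 7.1.0 per the file headers, while the submitters' processing notes name version 3.1.0. The notes name mm10 and GRCm39 without saying which applies, and the barcode rule and the treatment of intronic reads are not given in the sources used here. Of 32285 feature identifiers, 32235 (99.8%) matched GENCODE M21. UMIs were summed per class and library in Python 3.11.15 (numpy 2.4.6, scipy 1.17.1) and divided by the class total to give CPM. Folds needed at least 20 UMIs per library over both sides, and 2-fold was the call rule. Intervals are Poisson, Clopper-Pearson or conditional binomial at 95%. The scripts were tested on simulated data. No doublet caller was run; the 5% of cells with the most UMIs were left out as an alternative. TMM and median-ratio factors came from edgeR 4.0.16 in R 4.3.3. The members, classes and gene lists were chosen with earlier results of these data known. Named are all 8 members, up to 3 highest and 3 lowest genes of each list with Myog or with cycling, and the 3 genes most like Des, Vim, Nes, Lmna and Lmnb1, of which 1 is not reported here. The alternatives covered cell filters, scaling, class limits, classes and levels from different libraries, Malat1-poor cells, thinning and each library left out.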

Additional observations from a re-analysis of the deposited data

Results flagged for a closer look

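In 2 of 43 values compared over the libraries, 1 library stood apart from the other 3 by most of their range, which chance gives in about 5% of sets of 4. The log2 ratio of Lmnb1 between Myog-high and Myog-low non-cycling cells was 0.44 in replicate 1 and 0.17 to 0.21 in the others. For Nes between cycling and non-cycling Myog-low cells it was 1.09 in replicate 3 and 0.79 to 0.83 in the others. Both lay inside the counting interval of the mean.

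The change of Vim and Nes with cycling had opposite signs at low and high Myog in every library. For Vim the log2 ratio of cycling over non-cycling cells was -0.29 at low and 0.40 at high Myog, and for Nes it was 0.88 and -0.30. Under TMM the values at high Myog were 0.17 for Vim and -0.53 for Nes. Within single classes of Myog the gaps at high Myog were smaller than in the pooled cells with CPM, and TMM factors were not computed there. The difference between the Myog levels was not tested, since the libraries are 1 sample.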

How the results depend on the processing

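No paired analysis was possible because the labels give 1 group and the numbered libraries hold the same cells. Of 213 values that answer a comparison, recomputed under the alternatives, 194 stayed within the spread set for them, 19 moved and 0 reversed. Most of these values are counts, which could only stay or move, so a reversal was possible only for the changes in share. Members past 2-fold with cycling at low Myog, 2 as reported, were 3 (with Nes added) with cycling limits of 50 and 250 CPM. The rule for counts took that as unchanged. With median-ratio factors the members past 2-fold with Myog were 5, the genes at least 2-fold lower 2081 with Myog and 899 from early to late cells. With TMM these were 5, 2044 and 817. The members past 2-fold from early to late cells, 2 as reported, were 1 with stricter cell filters, 1 with Myog limits of 50 and 3000 CPM and 1 with no filter and a pseudocount of 1 CPM, and 3 (with Lmnb1 added) with classes from replicates 1 and 2 and levels from 3 and 4. The setting with no filter gave 353 genes lower with cycling at low Myog and 378 at high Myog. With CPM averaged over cells, 2 members passed 2-fold with cycling at high Myog. The change in the Des share was 29.0 points with stricter filters, 29.6 averaged over cells, 32.7 with the other Myog limits and 30.8 with cycling limits of 50 and 250 CPM. The change in the Lmna share with Myog was -6.67 points with the other Myog limits, and with cycling -12.0 with the other cycling limits and -11.8 without Malat1-poor cells. Of the other values, those whose interval left out 0 reversed for Lmna alone: to 0.015 with Myog, -0.0038 with cycling at high Myog and 0.28 from early to late cells under TMM, and in the last to 0.24 with median-ratio factors and 0.072 with the other Myog limits. Signs of values whose interval held 0 changed for Synm with Myog (0.058 under TMM), Synm from early to late cells (0.037 with the other Myog limits) and Sync from early to late cells (0.31 under TMM, 0.11 without replicate 2). The cause was not tested. Leaving out each library gave 29.9 to 30.3 points for Des and -5.58 to -5.45 and -11.3 to -11.1 for Lmna. Depth limits Synm above all.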
